A study of Mus musculus with 16 samples.

Results

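The UDP-glucuronosyltransferases (Ugt) and cytosolic sulfotransferases (Sult) are conjugating enzymes of the liver. The genes described here are those whose symbol begins with Ugt1a, Ugt2a, Ugt2b or Ugt3a, or with Sult, a digit, a letter and a digit, which gave 44 of 54838 annotated mouse genes. They comprised 21 Ugt genes, of which 9 belong to the Ugt1a locus, 3 to Ugt2a, 7 to Ugt2b and 2 to Ugt3a, and 23 Sult genes, of which 8 belong to Sult1, 9 to Sult2, 2 to Sult3, 1 to Sult4, 1 to Sult5 and 2 to Sult6. Of the Sult1 genes, 2 are annotated pseudogenes.

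Ugt enzymes sit in the endoplasmic reticulum and transfer glucuronic acid from UDP-glucuronic acid to bilirubin, steroids, bile acids, phenols and drugs. Sult enzymes act in the cytosol and transfer sulfate from 3'-phosphoadenosine-5'-phosphosulfate (PAPS) to an overlapping range of substrates. The conjugates are more soluble in water and leave the hepatocyte through membrane transporters into bile or blood. Receptors that sense drugs and bile acids, such as Nr1i3 (the constitutive androstane receptor), Nr1i2 (the pregnane X receptor) and Nr1h4 (the farnesoid X receptor), regulate many of these genes.

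Messenger RNA was sequenced from whole liver of male wild-type C57BL/6J mice, in 16 samples and in 2 experiments that the file headers name separately. In the injection experiment, 3 livers were taken on day 3 after an intraperitoneal dose of 2 µL per g of an equal mixture of carbon tetrachloride (CCl4) and olive oil, and 3 on day 3 after 2 µL per g of olive oil alone. CCl4 is a solvent that hepatocytes turn into a toxic radical, and it kills the hepatocytes around the central vein. In the surgical experiment, 5 livers were taken on day 3 after partial hepatectomy (PH), and 5 samples were the liver tissue resected on day 0. The day 0 tissue is the baseline of that experiment, and a sham operation was not analysed here. The labels do not say that every sample is a separate animal, so the spread between samples may in part be technical.

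The 9 genes of the Ugt1a locus on mouse chromosome 1 share their last exons and differ in their first, which carries the substrate site. The junction is shown for the 4 genes with the most counts and for Ugt1a6a, read from GENCODE M21 transcripts (GRCm38, plus strand), as the last 30 bases of the first exon in lower case and the first 30 bases of the common part in capitals.
Ugt1a1: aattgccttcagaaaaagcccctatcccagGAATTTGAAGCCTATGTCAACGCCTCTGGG
Ugt1a9: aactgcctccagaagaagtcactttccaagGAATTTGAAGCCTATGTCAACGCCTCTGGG
Ugt1a5: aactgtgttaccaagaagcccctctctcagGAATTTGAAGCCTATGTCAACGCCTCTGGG
Ugt1a6b: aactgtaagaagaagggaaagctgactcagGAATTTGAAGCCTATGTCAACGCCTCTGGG
Ugt1a6a: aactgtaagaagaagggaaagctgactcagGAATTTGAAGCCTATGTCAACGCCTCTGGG
The capitals are the same letters in all 9 genes, and 735 coding bases, 45.8% to 46.4% of each coding sequence, are common to them. The first exons of Ugt1a6b and Ugt1a6a end in the same 30 bases. Reads that overlap exons of more than 1 gene were not counted by the authors, so a Ugt1a count rests on the bases that gene has to itself. For Ugt1a1, Ugt1a9, Ugt1a5 and Ugt1a6b those are 879 to 938 bases, all ahead of the common exons. For Ugt1a6a they are 222 bases ahead of the common exons and 1920 between or after them. The count of Ugt1a6a is therefore not a measure of its coding first exon, and its values below carry that limit. Levels are given as CPM, which are counts scaled to a common library size, and, between genes, as CPM per kb of a gene's own exon bases.

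The promoters of 36 of the 44 genes were in the RefSeq table (GRCm38.p6) and were searched over 250 bases ahead of the start, on both strands, for 5 short motifs in 32851 annotated windows. The TATA letters TATAAA were in the windows of 9 of these 36 genes, against 12.4% of all windows. The AhR core GCGTG was in those of 5 of 36 genes against 28.2%, and the STAT5 letters TTCNNNGAA in those of 2 of 36 against 7.02%. The HNF4 core CAAAGTCCA and the NRF2 core TGACNNNGC were in those of 0 of 36, against 0.384% and 10.2%. A match describes letters in a window and does not show that a factor binds there, and a window without one says nothing of the factor.

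Total counts were 2795909 to 8647503 per sample, so that 3 counts corresponded to 0.368 to 1.03 CPM. In the tests across genes, edgeR's quasi-likelihood test called 1279 genes higher and 1320 lower of 11337 after CCl4, and 1026 higher and 845 lower of 10546 after PH. When libraries were scaled by total count alone, these became 2973 higher and 423 lower after CCl4 and 1617 higher and 432 lower after PH. That scaling moved the median of all tested genes to 0.46 after CCl4, against 0.01 with the scaling used, and to 0.13 after PH, against -0.01. No 2 files held identical values. Hepatocyte markers summed to 84530 to 104600 CPM in CCl4 livers against 91190 to 102800 CPM in olive oil livers, and to 103900 to 120200 CPM at PH day 3 against 66910 to 86170 CPM at PH day 0. The sums cover 6 markers, of which Alb rose and Apoa1 and Apoh fell after PH.

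The CCl4 library of replicate 1 stood apart from the other 2, and many but not all results of the injection experiment are given with and without it. It was singled out from these same data, and fits without it rest on the other 2 CCl4 libraries. Over all tested genes its median distance from the mean of the other CCl4 libraries was 0.310 on the log2(CPM + 1) scale, against 0.211 to 0.233 for each other library of that experiment from the rest of its own group. Of the 22 transferases with at least 30 counts in the CCl4 group, it was the lowest of the 3 libraries in 15 and the highest in 7. Ugt2b34, the Ugt gene with the most counts in that group, had 200.2 CPM in CCl4 replicate 1 and 652.5 and 762 CPM in replicates 2 and 3. Sult1a1, the main phenol sulfotransferase, went the other way, with 696 CPM in replicate 1 and 124 and 186 CPM in replicates 2 and 3. Sult1e1, the estrogen sulfotransferase, had 222 counts in replicate 1, or 47.0 CPM, and 1 and 0 counts in replicates 2 and 3.

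**Figure D1:**
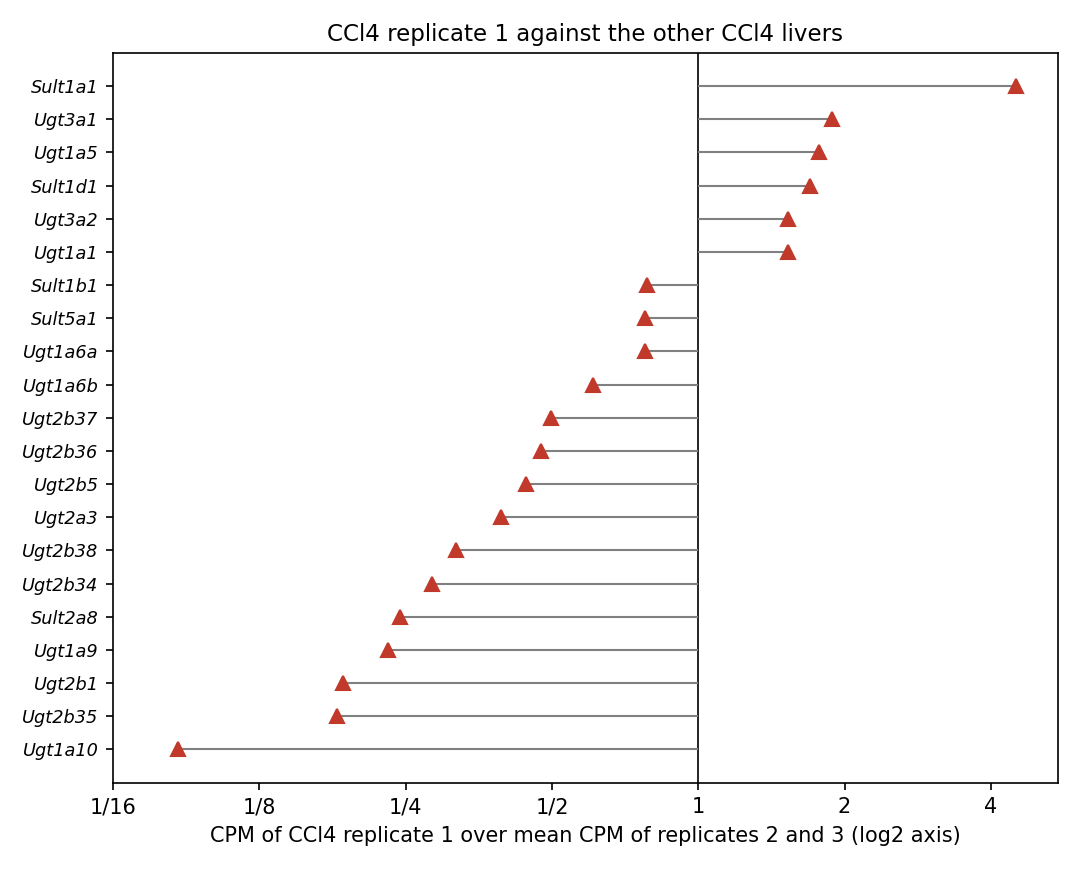
Each triangle gives the CPM of CCl4 replicate 1 divided by the mean CPM of CCl4 replicates 2 and 3 for 1 transferase, on a log2 axis. Of the 21 genes plotted, Sult1a1 is highest at 4.50 times the other livers and Ugt1a10 lowest at 0.0849 times. Sult1e1 is not plotted, since replicates 2 and 3 held 1 and 0 counts.

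Ugdh, which makes UDP-glucuronic acid, and 3 cytochrome P450 genes that serve as targets of the regulators also stood apart in that library. Cyp3a11, a target of Nr1i2, had 146 CPM in CCl4 replicate 1 and 1926 and 1751 CPM in replicates 2 and 3. Cyp1a2, a target of the aryl hydrocarbon receptor, had 9.95 CPM in replicate 1 and 386.5 and 518 CPM in the other 2. Ugdh had 86.8 CPM in replicate 1 and 308 and 531 CPM in the others, while Cyp4a14, a target of Ppara, had 772 CPM in replicate 1 and 19.9 and 9.125 CPM in the others. These 4 genes were singled out after their values were seen, and what sets the library apart was not tested.

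Most transferase transcripts of these livers came from few genes. Of the 44 genes, 11 had no count in any sample, 8 had 1 to 20 counts over all 16 samples, and 21 passed the filter on low counts in each experiment. Of the 4 others, Ugt1a7c and Sult2a7 had 43 and 68 counts over all samples and entered no test, and Ugt1a10 and Sult1e1 entered the test of the difference alone. The 21 were the same genes in both, 15 Ugt and 6 Sult. Among those without a count were Ugt2a1 and Ugt2a2, which have only 30 and 140 bases to themselves, so that a count of 0 says little of their expression. Sult2a1 and Sult3a1, which in mouse liver are known from females, had 1 and 2 counts over the 16 libraries of male liver.

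In PH day 0 liver, Ugt2b5 had the highest level per length, at 351 ± 19.96 CPM per kb (SD, n = 5), and did not overlap the next gene, Ugt2b36, at 279 ± 28.1. Ugt2b36 overlapped Ugt2b1 at 262 ± 24.5, which overlapped Sult2a8 at 238 ± 24.1. At PH day 3 the order was Sult1a1 at 277 ± 42.3 CPM per kb, Ugt2b36 at 241 ± 34.1 and Ugt2b5 at 232 ± 53.9, whose ranges overlapped, and Sult2a8 was 11th at 58.4 ± 12.3. In CCl4 livers Ugt2b5 came first at 235 ± 98.8 CPM per kb, where all neighbours among the first 12 genes overlapped. In olive oil livers it was again first, at 444 ± 59.3, followed by Ugt2b36 at 363 ± 41.1 and Sult2a8 at 285 ± 43.5 (SD, n = 3). Near-identical copies limit these levels, since of the stretches of 50 bases in Ugt2b5, Ugt2b38 and Ugt2b37 58.3%, 62.6% and 81.7% occur in no other transcript, and the coding sequences of Ugt2b5 and Ugt2b38 are 97.04% identical.

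After CCl4, 8 of the 21 tested transferases fell and 0 rose (edgeR, adjusted p under 0.05), where 22.9% of all tested genes were called, 11.6% as lower and 11.3% as higher. The fallen genes were Sult2a8, Sult5a1, Ugt3a1, Ugt1a1, Ugt2a3, Ugt3a2, Ugt1a6a and Ugt2b36. The median change of the 21 was -0.94 on the log2 scale, against 0.01 over all tested genes. Without CCl4 replicate 1, 14 fell, among them the same 8, and 1 rose, where 29.9% of all tested genes were called, 15.6% as lower and 14.3% as higher, and the median of the 21 was -0.63. Fewer cells of a type and less RNA per cell cannot be told apart in whole liver.

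After PH, 11 of the 21 fell and 3 rose, where 17.7% of all tested genes were called, 8.01% as lower and 9.73% as higher. Ugt1a9, Sult1a1 and Ugt1a5 rose. Sult2a8, Sult5a1, Ugt2b1, Ugt2b38, Ugt2b37, Ugt3a1, Ugt2a3, Ugt2b5, Ugt1a1, Ugt3a2 and Ugt1a6b fell, and the median of the 21 was -0.48 on the log2 scale against -0.01 over all tested genes. Of the 8 genes that fell after CCl4 and the 11 that fell after PH, 6 were shared, which is 6 of 8 and 6 of 11. Over the 10468 genes tested in both, 477 fell in both, which is 36.8% of those that fell after CCl4 and 56.7% of those that fell after PH. Leaving out CCl4 replicate 1, 10 transferases were shared, of 14 and of 11, and the shares over all genes were 33.2% and 70.1%. The comparisons share no samples.

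**Figure D2:**
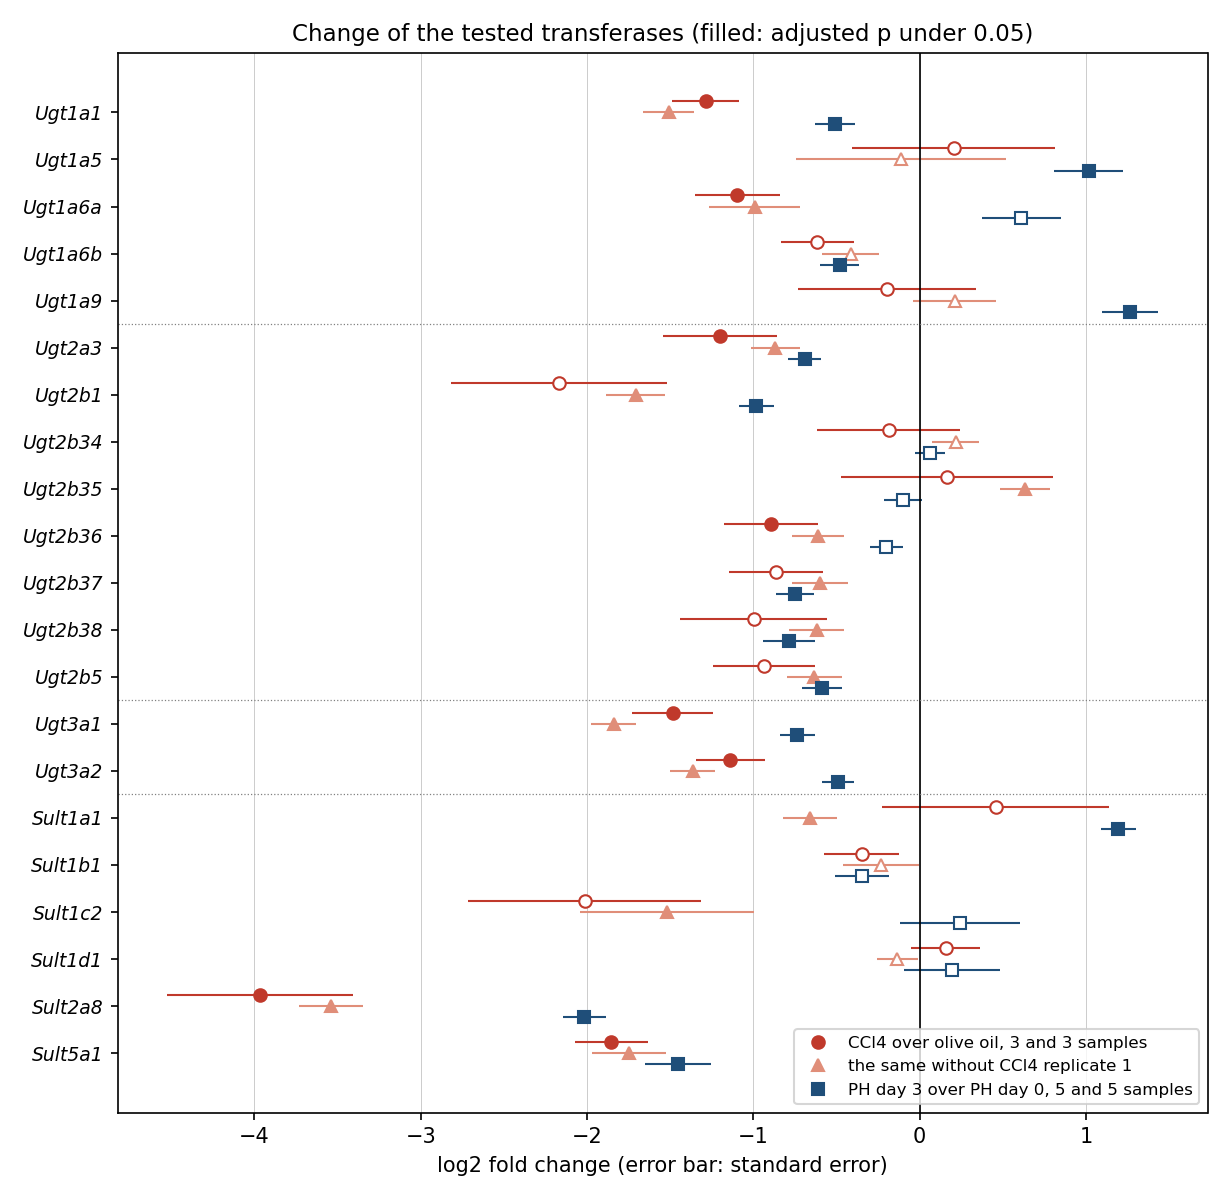
Log2 fold changes with standard errors of the 21 tested transferases, by family, for CCl4 over olive oil, the same without CCl4 replicate 1, and PH day 3 over PH day 0, with filled symbols for adjusted p under 0.05. Sult2a8 lies farthest to the left, at -3.97 after CCl4 and -2.02 after PH, and Ugt1a9 farthest to the right, at 1.27 after PH.

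Sult2a8 (ENSMUSG00000030378, chromosome 7, 14410686 to 14446769, minus strand of GRCm38), which sulfates bile acids in mouse liver, had the largest change of any transferase tested. It had 19.7, 88.8 and 73.0 CPM in the CCl4 livers, against 1011, 771 and 1026 CPM in the olive oil livers. It had 128, 220.3, 231, 183 and 197 CPM at PH day 3 (replicates 12 to 16), against 741, 806.5, 883, 673 and 809 CPM at PH day 0. Neither pair of groups overlapped, and in both the challenged livers were the lower ones. The change was -3.97 ± 0.56 on the log2 scale after CCl4 (adjusted p = 0.0034), or 15.6-fold lower, and -3.54 ± 0.19 without CCl4 replicate 1 (adjusted p = 1.6e-08). After PH it was -2.02 ± 0.13 (adjusted p = 3.0e-09), or 4.04-fold lower. All stretches of 50 bases in its transcript occur in no other transcript.

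**Figure D3:**
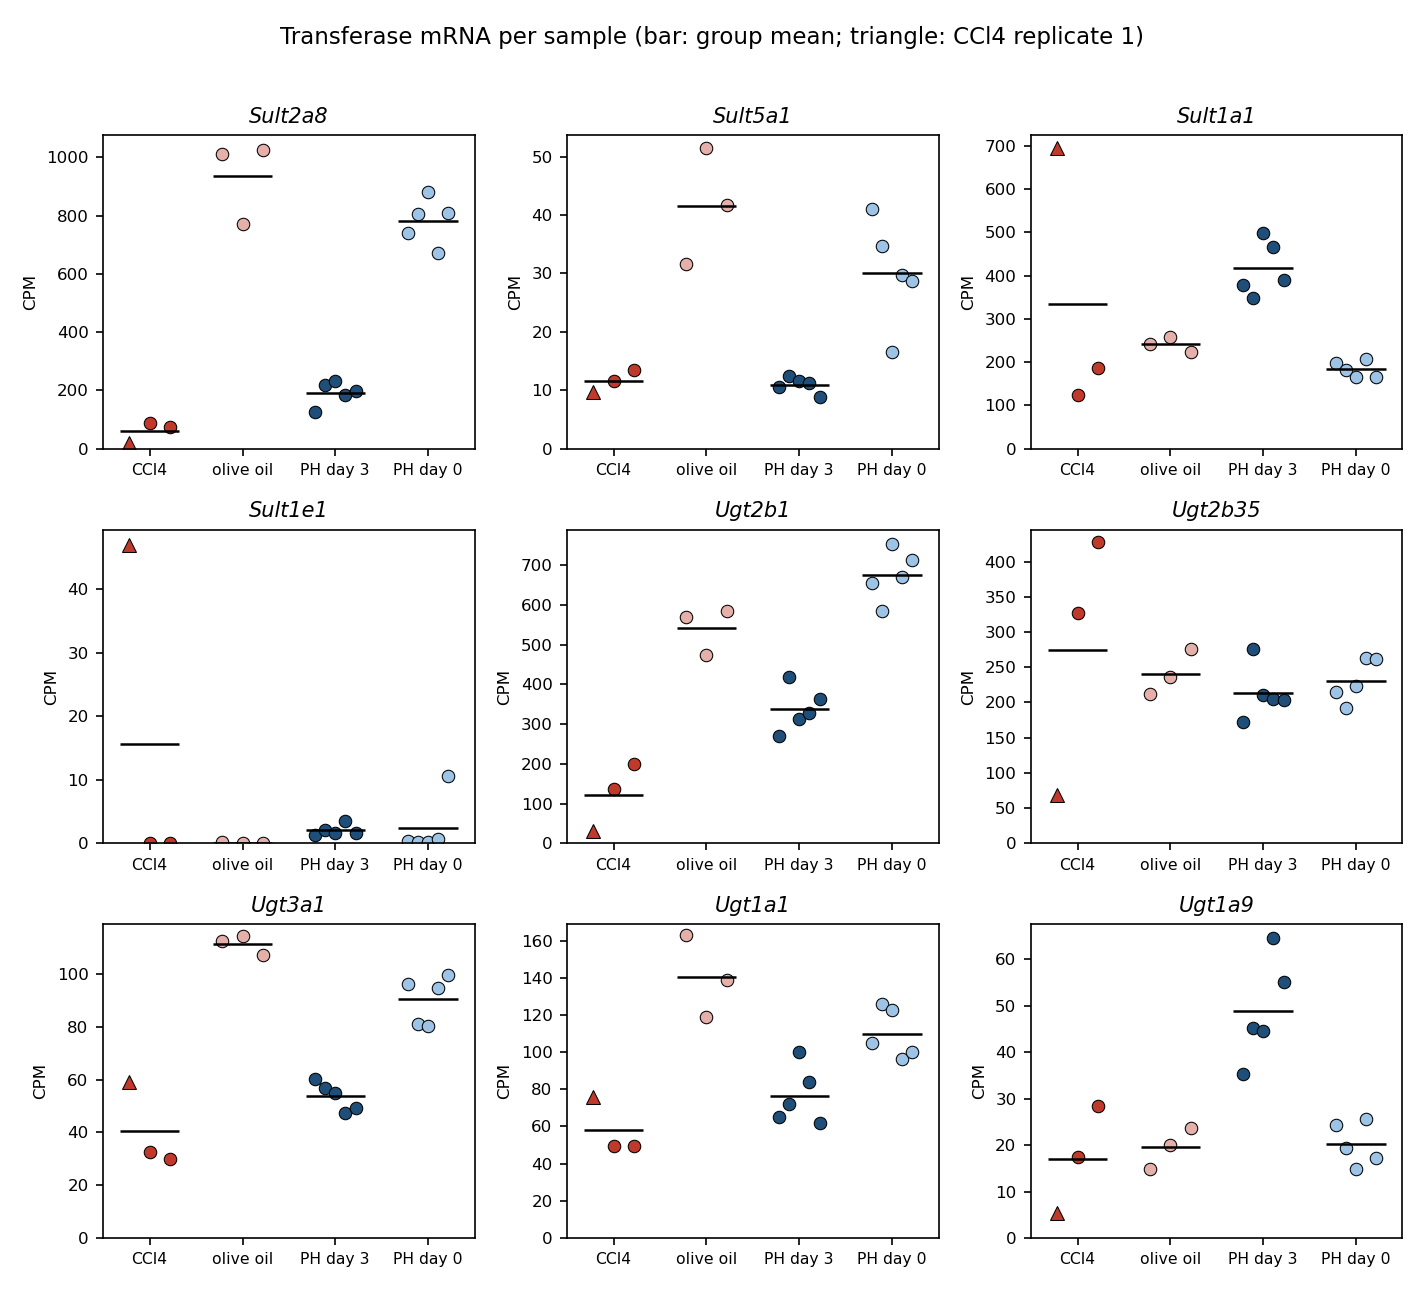
CPM per sample of 9 transferases in CCl4, olive oil, PH day 3 and PH day 0 livers, with a bar at the group mean and a triangle for CCl4 replicate 1. Sult2a8 lies at 19.7 to 88.8 CPM in CCl4 livers and at 128 to 231 CPM at PH day 3, below the 771 to 1026 CPM of olive oil livers and the 673 to 883 CPM of PH day 0 livers.

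Sult5a1 (ENSMUSG00000000739, chromosome 8, 123140192 to 123158315, minus strand) fell in both experiments. It had 9.73, 11.5 and 13.5 CPM in CCl4 livers, against 31.5, 51.5 and 41.7 CPM in olive oil livers. At PH day 3 it had 10.6, 12.5, 11.6, 11.3 and 8.84 CPM, against 41.1, 34.7, 16.5, 29.7 and 28.8 CPM at PH day 0. All challenged livers were below all livers of their baseline, with changes of -1.85 ± 0.22 after CCl4 (adjusted p = 0.00036), or -1.75 ± 0.22 without CCl4 replicate 1 (adjusted p = 3.9e-05), and -1.45 ± 0.20 after PH (adjusted p = 1.1e-05).

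Sult1a1 (ENSMUSG00000030711, chromosome 7, 126672865 to 126676432, minus strand) rose after PH. It had 379, 348, 499.6, 467 and 390.4 CPM at PH day 3, against 199, 182, 165, 208 and 166 CPM at PH day 0, with no overlap and a change of 1.19 ± 0.11 (adjusted p = 1.7e-08). In the injection experiment it had 696, 124 and 186 CPM in CCl4 livers, against 243, 257 and 224 CPM in olive oil livers. CCl4 replicate 1 lay above every olive oil liver and the other 2 below, and the change was 0.46 ± 0.68 (adjusted p = 0.68). Without that library Sult1a1 fell, by 0.66 on the log2 scale (adjusted p = 0.0066).

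The other 3 tested Sult genes did not pass in the edgeR fit of either experiment with all libraries. Sult1d1, which sulfates catechols in mouse, had a mean of 116 ± 37.8 CPM in CCl4 livers and 103 ± 5.19 CPM in olive oil livers (SD, n = 3 each), and 100.2 ± 13.2 CPM at PH day 3 and 89.3 ± 42.3 CPM at PH day 0 (SD, n = 5 each). With total count scaling it rose after CCl4 (0.56 ± 0.20, adjusted p = 0.047). At PH day 0 it reached 159 CPM in replicate 16 and lay at 51.8 to 97.2 CPM in the other 4, and without that library it rose by 0.49 ± 0.15 on the log2 scale after PH (adjusted p = 0.030). Sult1b1, which sulfates thyroid hormones, had a mean of 19.3 ± 2.68 CPM in CCl4 livers and 24.3 ± 6.81 CPM in olive oil livers, and its change after PH was -0.34 ± 0.16 (adjusted p = 0.16). Sult1c2 had at most 6.83 CPM in any liver, with a change of -2.01 ± 0.70 after CCl4 (adjusted p = 0.065) and, without CCl4 replicate 1, a fall of -1.52 ± 0.53 (adjusted p = 0.041). With all libraries Sult1c2 passed with DESeq2, with no filter and in the fit of all 16 samples (adjusted p = 0.018, 0.0046 and 0.013).

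Sult1e1 was not tested within either experiment because it did not pass the filter on low counts. At PH day 3 its 5 livers held 5 to 15 counts each, or 1.36, 2.08, 1.57, 3.45 and 1.70 CPM, and at PH day 0 they held 0.394, 0.248, 0.266, 0.691 and 10.6 CPM. Replicate 16 was above all day 3 livers and the other 4 day 0 livers below them. It was the same day 0 library that had the highest Sult1d1. In olive oil livers Sult1e1 had 1 count in replicate 1 and 0 in the other 2, where 3 counts would have been 0.658 to 0.751 CPM.

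In the Ugt1a locus, which starts at position 88055388 of chromosome 1 on the plus strand, the first exons moved in different directions after PH. Ugt1a1, the bilirubin glucuronosyltransferase, fell in both experiments. Ugt1a9 and Ugt1a5 rose after PH, and neither passed after CCl4. Of the 5 tested genes of the locus, 2 rose, 2 fell and 1 did not pass after PH, and 2 fell and 3 did not pass after CCl4. The shares over all tested genes were 9.73% higher and 8.01% lower after PH, and 11.6% lower after CCl4.

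Ugt1a1 had 75.8, 49.5 and 49.7 CPM in CCl4 livers, against 163, 119 and 139 CPM in olive oil livers, with no overlap and a change of -1.29 ± 0.20 (adjusted p = 0.0016). The change was -1.51 ± 0.15 without CCl4 replicate 1 (adjusted p = 4.6e-06). At PH day 3 it had 64.9, 72.2, 99.9, 83.9 and 61.9 CPM, against 105, 126, 122.8, 96.1 and 100.1 CPM at PH day 0. The groups overlapped in replicate 14 of day 3 only, and the change was -0.51 ± 0.12 (adjusted p = 0.0047).

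Ugt1a9, which acts on phenols, had 35.3, 45.2, 44.5, 64.6 and 55.1 CPM at PH day 3, against 24.3, 19.3, 14.9, 25.6 and 17.1 CPM at PH day 0. All day 3 livers were above all day 0 livers, with a change of 1.27 ± 0.17 (adjusted p = 1.0e-05). In CCl4 livers it had 5.29, 17.4 and 28.5 CPM, against 14.8, 19.95 and 23.8 CPM in olive oil livers, which overlapped (-0.20 ± 0.53, adjusted p = 0.83). Ugt1a5 had 24.2, 20.5, 20.1, 24.6 and 29.6 CPM at PH day 3, against 7.08, 10.2, 18.4, 13.1 and 11.7 CPM at PH day 0, without overlap and with a change of 1.02 ± 0.21 (adjusted p = 0.0011), which did not pass in a fit that held all 16 samples (adjusted p = 0.058). Its first exon ends in the same 30 bases as that of Ugt1a2, which had 17 counts over all samples.

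Ugt1a6b, of the phenol-conjugating Ugt1a6 pair, had 33.0, 42.6, 37.3, 38.4 and 40.8 CPM at PH day 3, against 48.4, 46.8, 62.9, 57.6 and 55.5 CPM at PH day 0. The groups did not overlap, and the change was -0.48 ± 0.12 (adjusted p = 0.0043), which did not pass when libraries were scaled by total count alone (adjusted p = 0.053). After CCl4 it was at -0.62 ± 0.22 (adjusted p = 0.070), and at -0.41 ± 0.17 without CCl4 replicate 1 (adjusted p = 0.085). It passed in 3 of 14 other settings. These were without CCl4 replicate 3 (-0.82 ± 0.23, adjusted p = 0.033), with no filter (adjusted p = 0.0061) and in the fit of all 16 samples (adjusted p = 0.015). Ugt1a6a, whose own bases lie mostly between or after the common exons as described above, had 6.14, 6.38 and 9.45 CPM in CCl4 livers, against 14.3, 17.3 and 14.8 CPM in olive oil livers. The change was -1.09 ± 0.26 (adjusted p = 0.012). That call ended without CCl4 replicate 2 or without olive oil replicate 2 (adjusted p = 0.052 and 0.051) and with total count scaling (-0.63 ± 0.31, adjusted p = 0.14), and without CCl4 replicate 1 the change was -0.99 ± 0.27 (adjusted p = 0.013). After PH it was at 0.61 ± 0.23 (adjusted p = 0.075), and it rose without PH day 0 replicate 12 (0.81 ± 0.25, adjusted p = 0.027) and with total count scaling (0.76 ± 0.24, adjusted p = 0.025).

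As a description of the composition of the locus, each first exon was set against the sum of the 7 genes counted on their first exon, in CPM per kb. Ugt1a1 made up 39.9 ± 5.90% at PH day 3 and 55.6 ± 4.56% at PH day 0 (SD, n = 5 each), and Ugt1a9 26.3 ± 3.93% at day 3 and 10.8 ± 2.84% at day 0. The summed CPM of all 9 Ugt1a genes was 201 ± 20.9 at day 3 and 205 ± 13.7 at day 0. In CCl4 livers the sum was 126 ± 13.7 CPM, against 234 ± 28.5 CPM in olive oil livers (SD, n = 3 each). Within it Ugt1a1 made up 49.8 ± 14.0% in CCl4 livers and 64.4 ± 1.56% in olive oil livers. Reads that map to several places were not counted either, and 21.4% of the stretches of 50 bases in Ugt1a6b and 2.26% of those in Ugt1a6a occur in no other transcript.

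**Figure D4:**
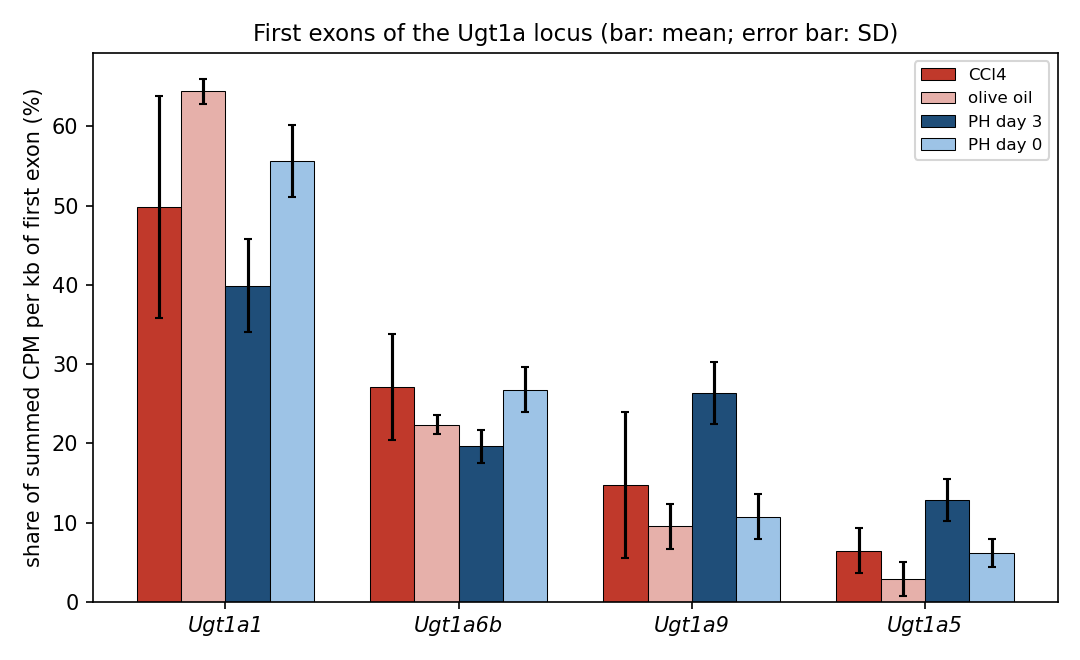
Mean share, with SD, of 4 Ugt1a first exons in the summed CPM per kb of the 7 Ugt1a genes counted on their first exon, for livers after CCl4 or olive oil alone (n = 3 each) and at days 3 and 0 of PH (n = 5 each). Ugt1a9 stands at 26.3% at PH day 3 and 10.8% at PH day 0, and Ugt1a1 at 39.9% at PH day 3 and 55.6% at PH day 0.

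The Ugt2 cluster on chromosome 5 held the most abundant glucuronosyltransferases, whose enzymes act on steroids, bile acids and drugs. After PH, 5 of its 8 tested genes fell and 3 did not pass, where 8.01% of all tested genes were called lower. After CCl4 2 fell and 6 did not pass in the edgeR fit with all libraries, where 11.6% were called lower. Without CCl4 replicate 1, 6 fell and 1 rose, where 15.6% were called lower and 14.3% higher. In both experiments Ugt2b1 had the largest change of the cluster, and Ugt2b34 did not pass.

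Ugt2b1 (ENSMUSG00000035836, chromosome 5, 86916638 to 86926530, minus strand) had 269.8, 418, 314, 328 and 362 CPM at PH day 3, against 654, 585, 753, 671 and 711.7 CPM at PH day 0. All day 3 livers were below all day 0 livers, and the change was -0.98 ± 0.11 (adjusted p = 3.5e-07), with an adjusted p of 0.063 from edgeR when all 16 samples were fitted together. It had 31.1, 136 and 199.9 CPM in CCl4 livers, against 570.0, 474 and 583 CPM in olive oil livers. These groups did not overlap either, yet the change of -2.17 ± 0.65 did not pass in the edgeR fit of that experiment (adjusted p = 0.067). It passed with DESeq2 (adjusted p = 0.013) and in the edgeR fit of all 16 samples (adjusted p = 0.0027), and without CCl4 replicate 1 it was a fall of -1.71 ± 0.18 (adjusted p = 6.1e-06). Without CCl4 replicate 3 it also fell (-2.71 ± 0.66, adjusted p = 0.048).

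Ugt2a3 had 121, 157, 116, 124 and 113 CPM at PH day 3, against 193, 207, 241, 188 and 200.1 CPM at PH day 0. In the injection experiment it had 51.4, 121 and 140.5 CPM in CCl4 livers, against 272, 203 and 236 CPM in olive oil livers. Neither pair of groups overlapped, with changes of -0.69 ± 0.10 after PH (adjusted p = 2.0e-05) and -1.20 ± 0.34 after CCl4 (adjusted p = 0.041). The call after CCl4 ended when CCl4 replicate 2 or any 1 olive oil replicate was left out (adjusted p = 0.065 to 0.11) and under 3 other settings (upper quartile scaling 0.051, limma-voom 0.057, total count scaling 0.24). The change was -0.87 ± 0.15 without CCl4 replicate 1 (adjusted p = 0.00051).

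The near-identical Ugt2b5, Ugt2b37 and Ugt2b38 fell together after PH, with the limit that reads common to them were not counted. Ugt2b5 had 328, 588, 433, 362.5 and 439 CPM at PH day 3, against 604, 639, 698, 680 and 641 CPM at PH day 0, a change of -0.59 ± 0.12 (adjusted p = 0.0012). Ugt2b37 had 43.2, 68.05, 57.6, 47.8 and 66.3 CPM at PH day 3, against 89.7, 94.2, 102, 102 and 90.5 CPM at PH day 0, a change of -0.75 ± 0.11 (adjusted p = 4.0e-05). Ugt2b38 had 97.4, 153, 108, 92.4 and 163 CPM at PH day 3, against 179, 200.0, 234, 209 and 247 CPM at PH day 0, a change of -0.79 ± 0.16 (adjusted p = 0.0032), and 0.072 when all 16 samples were fitted together. In none of the 3 genes did the groups overlap. After CCl4 all 3 were between -0.86 and -0.997 without passing in the edgeR fit of that experiment (adjusted p = 0.052, 0.064 and 0.16). With DESeq2 all 3 passed (adjusted p = 0.018, 0.029 and 0.046), and Ugt2b5 and Ugt2b37 also passed with no filter (adjusted p = 0.00015 and 9.3e-06) and in the fit of all 16 samples (adjusted p = 0.0090 and 0.0086). Ugt2b5 passed with a filter of 1 CPM too (adjusted p = 0.0499). Without CCl4 replicate 1 the 3 genes fell, by 0.60 to 0.63 on the log2 scale (adjusted p = 0.0093, 0.016 and 0.011). Ugt2b5 and Ugt2b37 also fell without CCl4 replicate 3 (adjusted p = 0.026 and 0.025).

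Ugt2b36 fell after CCl4, with 235, 449.8 and 538 CPM in CCl4 livers, against 771, 654 and 818 CPM in olive oil livers (-0.89 ± 0.28, adjusted p = 0.046). That call ended without CCl4 replicate 2 and without each olive oil replicate in turn (adjusted p = 0.081 to 0.15) and under RLE, upper quartile and total count scaling (0.051, 0.063 and 0.41). Leaving out CCl4 replicate 1 gave -0.61 ± 0.16 (adjusted p = 0.0083). After PH it was at -0.20 ± 0.10, with 414, 585, 479, 451 and 548 CPM at day 3 and 497, 558, 644, 619 and 554 CPM at day 0, which overlapped (adjusted p = 0.20).

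Ugt2b34 and Ugt2b35 did not pass in either experiment with all libraries. Ugt2b34 had a mean of 501 ± 61.2 CPM at PH day 3 and 484 ± 23.2 CPM at PH day 0 (SD, n = 5 each), a change of 0.06 ± 0.09 (adjusted p = 0.70). In CCl4 livers it had the values given above, against 617.5, 570.0 and 623 CPM in olive oil livers (-0.19 ± 0.43, adjusted p = 0.80). Ugt2b35 had 68.1, 327 and 427 CPM in CCl4 livers, against 212, 236 and 276 CPM in olive oil livers. CCl4 replicate 1 lay below every olive oil liver and the other 2 above, with a change of 0.17 ± 0.64 (adjusted p = 0.89), and without it Ugt2b35 rose by 0.63 ± 0.15 (adjusted p = 0.0057). After PH Ugt2b35 was at -0.10 ± 0.11 (adjusted p = 0.61).

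The Ugt3a pair on chromosome 15, whose human counterparts use sugars other than glucuronic acid, fell in both experiments. Ugt3a1 had 59.0, 32.8 and 29.8 CPM in CCl4 livers, against 113, 115 and 107 CPM in olive oil livers (-1.48 ± 0.24, adjusted p = 0.0027). It had 60.1, 56.9, 55.1, 47.35 and 49.3 CPM at PH day 3, against 96.4, 81.3, 80.5, 94.7 and 99.7 CPM at PH day 0 (-0.73 ± 0.10, adjusted p = 1.3e-05). Neither pair overlapped, and CCl4 replicate 1 was the highest of the CCl4 livers, with a change of -1.84 ± 0.14 when it was left out (adjusted p = 2.8e-07).

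Ugt3a2 had 249, 162 and 164 CPM in CCl4 livers, against 404, 443 and 403 CPM in olive oil livers (-1.14 ± 0.21, adjusted p = 0.0035). It had 222, 275, 268, 224 and 205 CPM at PH day 3, against 343.5, 309.8, 311, 389.6 and 337 CPM at PH day 0 (-0.49 ± 0.10, adjusted p = 0.00079). The groups did not overlap in either experiment, and the CCl4 change was -1.37 ± 0.14 without CCl4 replicate 1 (adjusted p = 4.0e-06). The coding sequences of the pair are 93.2% identical, and 90.6% of the stretches of 50 bases in each are its own.

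As sums over a family, given as a description, the Ugt genes reached 1333, 2649 and 3243 CPM in CCl4 livers, against 4352, 3882 and 4596 CPM in olive oil livers. At PH day 3 they reached 2334, 3349, 2712, 2586 and 2902 CPM, against 3525, 3539, 3996, 3928 and 3838 CPM at PH day 0. With the scaling used, every challenged liver was below every liver of its baseline. The scaling factors were 0.98, 1.31 and 1.30 in CCl4 libraries, against 0.93, 0.87 and 0.86 in olive oil libraries. Factors were 0.99 to 1.09 at PH day 3, against 0.88 to 0.97 at PH day 0. The order of the Ugt sums rests on this scaling in both experiments, and sums scaled by total count alone are not given. The Sult genes summed to 949, 343 and 387 CPM in CCl4 livers, against 1425, 1206 and 1428 CPM in olive oil livers, and to 629 to 855 CPM at PH day 3, against 1032 to 1206 CPM at PH day 0.

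The difference between the responses, CCl4 over olive oil minus PH day 3 over PH day 0, was tested in 1 fit of all samples. Of 23 tested transferases 2 were called, both lower, where 5.33% of all tested genes were called, 3.87% as lower and 1.47% as higher. The median difference was -0.47 on the log2 scale over the 23 transferases and 0.02 over all tested genes. Sult2a8 had a difference of -1.91 ± 0.48 on the log2 scale (adjusted p = 0.033), and Ugt1a6a, with the limit of its count, -1.68 ± 0.34 (adjusted p = 0.0042). The call of Sult2a8 ended without olive oil replicate 1 or 3, without PH day 0 replicate 12, 13, 15 or 16 and without PH day 3 replicate 13, 14 or 16 (adjusted p = 0.052 to 0.085). It also ended with total count scaling (-1.55 ± 0.55, adjusted p = 0.12), with no filter (adjusted p = 0.070) and with the replicate block (adjusted p = 0.085). Leaving out CCl4 replicate 1 gave -1.502 ± 0.23 for Sult2a8 (adjusted p = 0.00018). The 2 genes tested in the difference alone were not called. Sult1e1 was at 7.19 ± 3.30 (adjusted p = 0.26), and at -0.05 ± 1.92 without CCl4 replicate 1 (adjusted p = 0.99). Ugt1a10 was at -0.45 ± 0.99 (adjusted p = 0.87).

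Without CCl4 replicate 1, 8 of the 23 differences were called, 7 lower and 1 higher, where 7.63% of all tested genes were called, 5.63% as lower and 2% as higher. Sult1a1 had a difference of -1.82 ± 0.20 (adjusted p = 1.4e-06), Ugt3a1 of -1.08 ± 0.17 (adjusted p = 0.00012), Ugt1a1 of -0.98 ± 0.21 (adjusted p = 0.0035) and Ugt3a2 of -0.85 ± 0.16 (adjusted p = 0.0011). Ugt2b1 was at -0.70 ± 0.20 (adjusted p = 0.032) and Ugt2b35 at 0.76 ± 0.21 (adjusted p = 0.023). Without CCl4 replicate 3, Ugt1a9 and Ugt2b36 were called, at -1.97 ± 0.46 (adjusted p = 0.021) and -0.91 ± 0.25 (adjusted p = 0.036). Ugt1a1 was called without olive oil replicate 2 (adjusted p = 0.046) or PH day 3 replicate 16 (adjusted p = 0.044). With all libraries DESeq2 also called the differences of Ugt1a9, Ugt1a1, Ugt3a2 and Sult1c2 (adjusted p = 0.036, 0.049, 0.041 and 0.017), and limma-voom those of Ugt1a1 and Ugt3a1 (adjusted p = 0.049 and 0.029). With no filter edgeR called Ugt1a1 and Ugt3a1 (adjusted p = 0.029 and 0.032). Since challenge and experiment coincide, the challenge cannot be told apart from the experiment in these differences.

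Of 5 tested genes of UDP-glucuronic acid supply and glucuronide hydrolysis, 1 rose after CCl4, where 11.3% of all tested genes were called higher, and 2 rose after PH, where 9.73% were. In neither experiment did any of the 5 fall. Gusb, which hydrolyses glucuronides, rose by 0.76 ± 0.18 after CCl4 (adjusted p = 0.014) and by 0.50 ± 0.14 after PH (adjusted p = 0.013). Ugdh rose by 0.63 ± 0.11 after PH (adjusted p = 0.00025), and after CCl4 it was at 0.65 ± 0.62 (adjusted p = 0.51), and it rose without CCl4 replicate 1 (1.10 ± 0.19, adjusted p = 0.0012). Of 8 tested genes of PAPS and sulfate supply, Papss1, a PAPS synthase, rose after CCl4 (0.91 ± 0.28, adjusted p = 0.040) and the other 7 did not pass. With CCl4 replicate 1 left out, Papss1 and Impad1 rose (1.14 ± 0.25 and 0.51 ± 0.15, adjusted p = 0.0028 and 0.017) and the sulfate carrier Slc26a1 fell (-0.41 ± 0.14, adjusted p = 0.042). After PH the phosphatase Impad1 rose by 0.49 ± 0.12 (adjusted p = 0.0057) and the phosphatase Bpnt1 fell, with -0.32 ± 0.11 (adjusted p = 0.041).

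Among 14 tested transporters of conjugates and bile acids, 6 fell after CCl4 and 4 after PH, and 0 rose in either, where 11.6% of all tested genes were called lower after CCl4 and 8.01% after PH. With CCl4 replicate 1 left out, 9 fell after CCl4, where 15.6% of all tested genes were called lower. The uptake carriers Slco1a1, Slco1b2 and Slc10a1 and the exporter Abcc6 fell in both. Slco1b2 changed by -1.74 ± 0.21 after CCl4 (adjusted p = 0.00043) and -0.55 ± 0.10 after PH (adjusted p = 0.00042), and Slco1a1 by -2.24 ± 0.60 after CCl4 (adjusted p = 0.047) and -1.81 ± 0.17 after PH (adjusted p = 1.3e-05). The difference between the responses was called for 4 of the 14, where 3.87% of all tested genes were called lower. They were Slco1b2, Slc10a1, Abcc6 and Slco2b1, all lower, at -1.15 ± 0.20, -1.03 ± 0.23, -0.75 ± 0.17 and -0.71 ± 0.15 (adjusted p = 0.0012 to 0.012). The bilirubin glucuronide exporter Abcc2 did not pass in either comparison, at -0.15 ± 0.25 after CCl4 and 0.18 ± 0.09 after PH (adjusted p = 0.70 and 0.21).

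Of 17 tested regulators, 6 fell and 0 rose after CCl4, and 4 rose and 2 fell after PH. The shares over all tested genes were 11.6% lower and 11.3% higher after CCl4, and 8.01% lower and 9.73% higher after PH. Nr1i3 fell by 1.56 on the log2 scale after CCl4 (SE 0.38, adjusted p = 0.023), with Ppara, Nr1h4, Cebpa, Rxra and Nr1h3. Without CCl4 replicate 1 the change of Nr1i3 was -2.16 ± 0.16 (adjusted p = 2.1e-07), and Nr1i2 also fell (-0.90 ± 0.15, adjusted p = 0.00038). After PH, Ahr rose by 0.84 ± 0.14 (adjusted p = 0.00011), Nfe2l2 by 0.65 ± 0.14 (adjusted p = 0.0022), Rora by 0.57 ± 0.12 (adjusted p = 0.00094) and Nr1i2 by 0.43 ± 0.13 (adjusted p = 0.019), and Cebpa and Rxra fell. Of their 8 tested target genes Cyp3a11 and Nqo1 rose after PH, by 1.45 ± 0.13 (adjusted p = 2.3e-08) and 1.23 ± 0.34 (adjusted p = 0.014), and Nr0b2 and Cyp1a2 fell, with -1.14 ± 0.25 (adjusted p = 0.0045) and -0.67 ± 0.10 (adjusted p = 3.4e-05). After CCl4 0 of 9 tested target genes passed with all libraries. Without CCl4 replicate 1, 3 of them rose and 2 fell, where 14.3% of all tested genes were called higher and 15.6% lower.

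**Figure D5:**
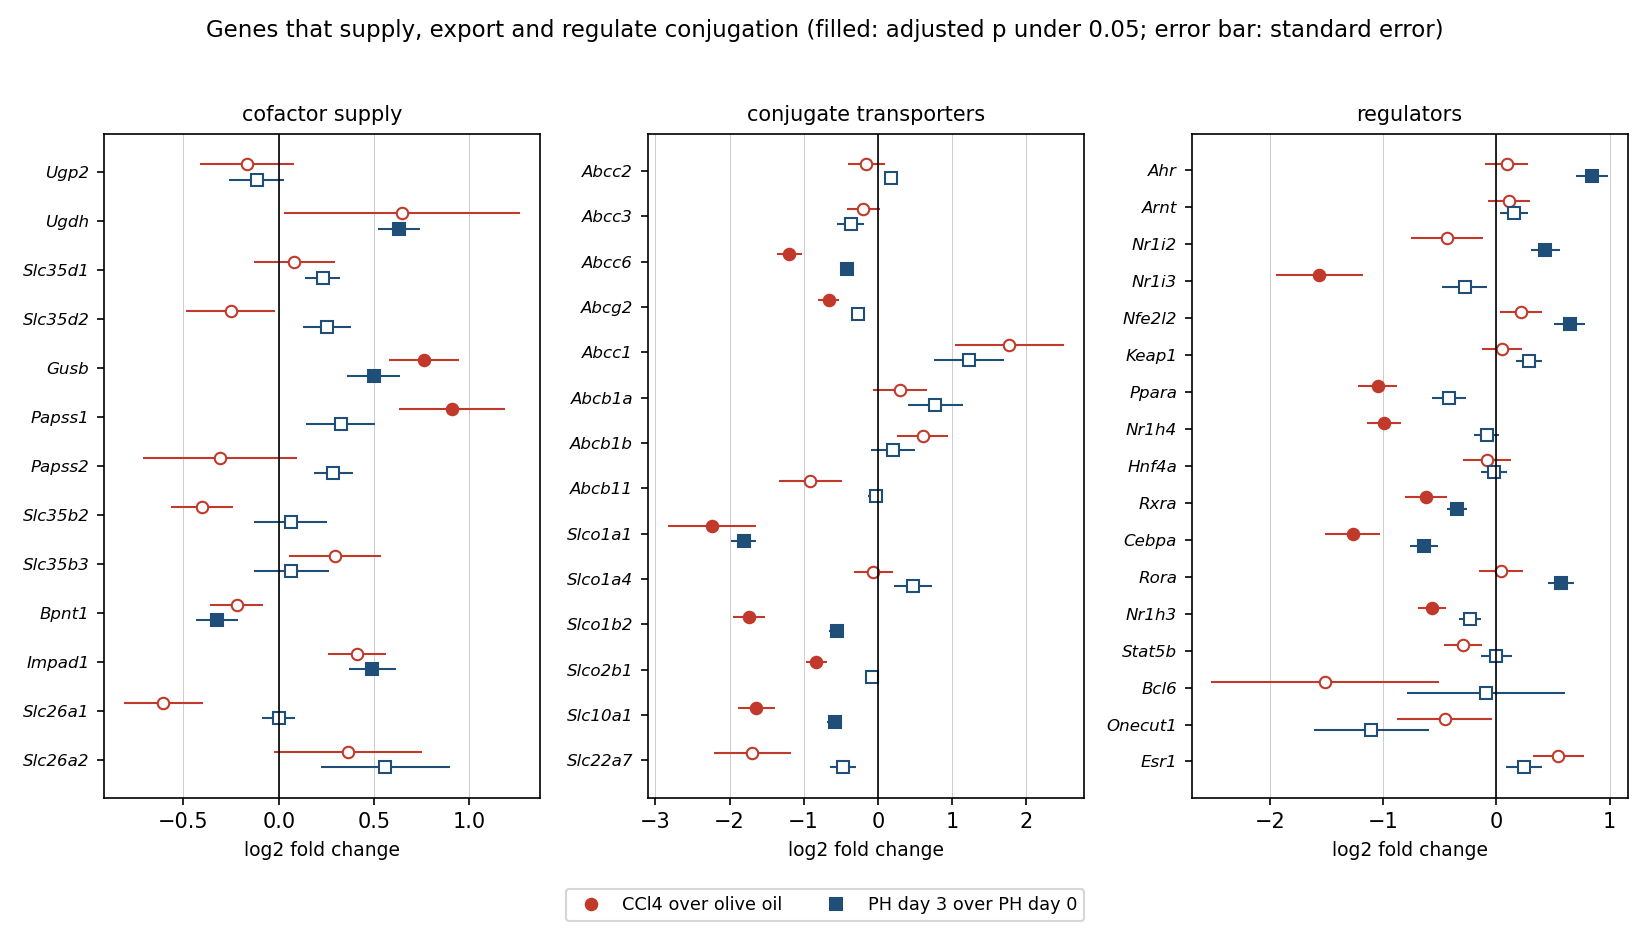
Log2 fold changes with standard errors of genes that supply cofactors, transport conjugates and regulate conjugation, for CCl4 over olive oil and PH day 3 over PH day 0, with filled symbols for adjusted p under 0.05. Slco1a1 lies at -2.24 after CCl4 and -1.81 after PH, and Ahr at 0.09 after CCl4 and 0.84 after PH.

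Summed markers of some other cells differed between groups without overlap, and those of others overlapped. The shares over all tested genes were 11.6% lower and 11.3% higher after CCl4, and 8.01% lower and 9.73% higher after PH. Without CCl4 replicate 1 they were 15.6% lower and 14.3% higher after CCl4. The 6 cholangiocyte markers summed to 175 to 293 CPM in CCl4 livers against 53.5 to 108 CPM in olive oil livers, and to 137 to 246 CPM at PH day 3 against 77.6 to 179 CPM at PH day 0, and of the 2 tested, Spp1 rose after CCl4 (1.71 ± 0.35, adjusted p = 0.013). The 6 stellate cell and fibroblast markers summed to 324 to 799 CPM in CCl4 livers against 94.4 to 138 CPM in olive oil livers, and to 185 to 664 CPM at PH day 3 against 99.7 to 199 CPM at PH day 0, and 4 of 6 rose after CCl4 and 3 of 6 after PH. The 5 red blood cell markers summed to 134 to 242 CPM in CCl4 livers against 437 to 515 CPM in olive oil livers, and all 5 fell after CCl4. At PH day 3 they summed to 690 to 1884 CPM, against 757 to 2048 CPM at PH day 0, and 1 of 5, Alas2, fell. Kidney markers summed to at most 1.57 CPM in any sample, and 4 of 5, Kap, Umod, Cdh16 and Slc34a1, were at 0 in CCl4 and olive oil livers. Intestine markers summed to 29.1 to 70.4 CPM, with Cdx2 at 0 throughout. Of 6 macrophage markers, 1 rose in each experiment with all libraries, and 2 rose after CCl4 without CCl4 replicate 1. The macrophage markers summed to 168 to 268 CPM in CCl4 livers against 101 to 303 CPM in olive oil livers. At PH day 3 they summed to 133 to 281 CPM, against 129.5 to 202 CPM at PH day 0. Of 6 endothelial markers, 1 rose after CCl4 with all libraries and 2 without CCl4 replicate 1, and 2 fell after PH. The endothelial markers summed to 90.15 to 106 CPM in CCl4 livers against 91.4 to 99.8 CPM in olive oil livers. The sums were 94.55 to 161 CPM at PH day 3 and 136 to 177 CPM at PH day 0. Of 6 hepatocyte markers 0 were called after CCl4 with all libraries, and Apoh fell without CCl4 replicate 1. After PH, Alb rose and Apoa1 and Apoh fell. The 5 pancreas markers summed to 5.925 to 21.5 CPM in CCl4 livers against 18.2 to 41.0 CPM in olive oil livers, and to 13.6 to 16.3 CPM at PH day 3 against 33.2 to 38.2 CPM at PH day 0. Of these, Cela1 fell after PH (-1.25 ± 0.15, adjusted p = 1.4e-06), and Cpa1, Ctrb1 and Pnlip were at 0 in CCl4, olive oil and PH day 0 livers. The part of these markers in the transferase results was not tested.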

How the data were processed

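The authors deposited 1 table of raw read counts per gene for each of 16 samples. Per the file headers, counts were made with featureCounts 1.6.2 on exons of Ensembl release 95, on the reverse strand, leaving out reads that map to several places or overlap several genes. Per the submitters' processing notes, reads were aligned with STAR 2.5.1 to GRCm38. Symbols came from GENCODE M21.

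Groups follow the labels. Genes passing filterByExpr (minimum count 10, minimum total 15) were tested with edgeR 4.0.16 (R 4.3.3) after TMM scaling, by quasi-likelihood tests with Benjamini-Hochberg adjustment over all tested genes at 0.05. Each experiment was fitted alone, and the difference of the responses with all samples. Errors beside log2 changes are standard errors. CPM used TMM-scaled totals, which were 2795909 to 8647503 counts before scaling. The CPM given for 3 counts depend on the depth and scaling of each library and do not measure the spread between samples. The p-values set each difference between groups against the spread estimated between these samples. The code was tested on simulated data. Alternatives used DESeq2 1.42.0 and limma 3.58.1 (voom), other scalings, filters, fits and left-out libraries.

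Genes named are all members called in any test and the 3 uncalled members of highest CPM per family. Members and lists were chosen with earlier results of these data known. Some regulators and a motif are not reported here.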

Additional observations from a re-analysis of the deposited data

Results flagged for a closer look

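Over the transferases that averaged at least 1 CPM in a PH group, 48 sets of 5 livers were examined, and 3 held a sample far from the other 4. Chance gives about 1 in 20, and 3 of 48 is near that rate. Ugt1a6a had 9.44 CPM in PH day 0 replicate 12, against 5.48 to 6.13 CPM in the other 4. Ugt2a3 had 157 CPM in PH day 3 replicate 13, against 113 to 124 CPM in the others. Sult1e1 had 10.6 CPM in PH day 0 replicate 16, against 0.248 to 0.691 CPM in the others.

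The response to CCl4 and the response to PH differed, by the edgeR test of the difference itself, in Ugt1a6a (-1.68 on the log2 scale) and in Sult2a8 (-1.91). Experiment and challenge cannot be told apart in both.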

How the results depend on the processing

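Of 474 repeats on called transferases under other settings, 427 kept the call and 47 lost it, and 0 changed direction. After CCl4, 8 transferases were called. DESeq2 called 13, the fit of all 16 samples 13 and an adjusted p under 0.01 5, with 5 to 15 when 1 library was left out. After PH, 5 of the 14 kept a change of at least 1 on the log2 scale. For the difference, 2 were called, against 1 with total count scaling, 6 with DESeq2, 4 with limma-voom, 1 with the replicate block, 1 at 0.01, and 1 to 8 when 1 library was left out. Over all genes, 2599 were called after CCl4, with 1258 at 0.01, 1461 at a change of at least 1 and 1492 to 3513 when 1 library was left out. After PH 1871 were called, with 1090 at 0.01 and 581 at a change of at least 1. For the difference 633 were called, with 255 at 0.01, 340 at a change of at least 1 and 384 to 931 when 1 library was left out. Total count scaling gave 481 higher and 153 lower there, against 174 and 459.

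Uncalled values changed sign as follows, and the cause was not tested. With total count scaling, the CCl4 changes of Ugt1a9, Ugt2b34 and Sult1b1 were 0.33, 0.35 and 0.11, and the PH change of Ugt2b35 was 0.036. With limma-voom, Ugt2b35 was at -0.24 after CCl4 and -0.0652 in the difference. With 1 library left out, the CCl4 changes ran from -0.75 to 0.21 for Ugt1a9, -0.18 to 1.19 for Ugt1a5, -0.52 to 0.22 for Ugt2b34, -0.30 to 0.63 for Ugt2b35, -0.13 to 0.29 for Sult1d1 and -0.66 to 0.86 for Sult1a1, and the difference of Ugt2b35 from -0.16 to 0.76.

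PH replicate numbers 12 to 16 occur in both PH groups. The labels do not say that a number marks a shared mouse, so the numbers were not taken as pairs in the main fit. Deviations of same-numbered samples correlated at -0.0217 to 0.093 over 11868 genes. Day 3 numbers 15 and 16 correlated best with their own number at day 0, and 12, 13 and 14 with another. Such correlations cannot show whether same-numbered samples come from the same mouse. With the replicate block, 1864 genes were called after PH, and Sult2a8 lost its call in the difference (adjusted p = 0.085). Depth limits the low genes: 3 counts were 0.368 to 1.03 CPM, and the 11 genes at 0 are not detected at that depth.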
